A study of Mus musculus with 6 samples.

Results

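The ATF4 stress response regulators described here are 10 genes, chosen by name from a table of read counts for 34573 genes: Atf4, Ddit3, Trib3, Atf5, Atf3, Cebpb, Cebpg, Ppp1r15a, Chac1 and Eif2ak4. All 10 symbols had a row. Of these, 7 passed the filter on low counts and were tested, and Trib3, Atf3 and Chac1 did not pass it. RNA was sequenced from CD4-CD8-CD44-CD25+ (DN3) thymocytes, early T cell precursors taken straight from the adult thymus. The mice were 6 to 8 weeks old and of mixed C57BL/6 and 129 descent. The 3 WT libraries came from Rpl22l1f/f mice without Cre, and the 3 L1 KO libraries from Rpl22l1f/f mice with Cre. Both groups thus carried the floxed alleles, and the controls lacked Cre. The series text names the driver as Vav-Cre, which is active in blood-forming cells from early on and is not specific to DN3 cells. That text attaches Cre to the opposite group, and the sample labels were followed.

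Cells slow protein synthesis under stress by phosphorylating the translation factor eIF2. The kinases that do this respond to amino acid shortage (GCN2, the product of Eif2ak4), to unfolded protein in the endoplasmic reticulum, to viral RNA or to heme shortage. Translation of the Atf4 mRNA then rises through short upstream reading frames, and the ATF4 protein, a basic leucine zipper factor, switches on genes of amino acid supply, tRNA charging, feedback and, under lasting stress, death. Much of the control of ATF4 therefore acts on translation, which read counts of mRNA do not measure. Rpl22l1 encodes a paralog of the ribosomal protein Rpl22, and the comparison shows how mRNA levels of these regulators differed when it was deleted.

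Libraries held 13887672 to 28128186 reads counted to genes. Rpl22l1 was at 86.3, 123 and 118 CPM (reads of a gene as a share of its library's reads in genes, in parts per 1000000, scaled between libraries by TMM) in WT 1 to 3 and at 18.6, 19.996 and 26.1 CPM in KO 1 to 3, so each library matched its label. All 16 DN3 markers on the list were detected, and their summed level was 11632 to 12375 CPM in WT and 11621 to 12511 CPM in KO. Single markers went in both directions. None of the 16 passed in edgeR, and limma-voom called 0, against 4.56% and 3.89% of all tested genes. However, 7 of the 16 had an unadjusted p under 0.05 in edgeR, against 23.5% of all tested genes. DESeq2 called 3 of the 16, against 8.90%. A fit with library number as a block called 3 higher, against 9.51%, and 4 lower, against 1378 of 13729 genes. The similar sums thus do not show that single markers were unchanged. Among all genes, 626 of 13729 tested genes, 4.56%, passed edgeR's quasi-likelihood test at an adjusted p of 0.05 (Benjamini-Hochberg). In both groups the library numbered 1 lay apart from the other two. Leaving out KO 1 raised the count to 1049 higher and 994 lower genes, and leaving out WT 2 reduced it to 54 and 48. With library number as a block, 2684 genes, 19.5%, passed.

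Promoter sequences are shown for the DNA element through which ATF4 acts, the C/EBP-ATF response element (CARE), because the regulators that hold it near their start site were those with the fewest reads. The letters TGATGNAA were searched on both strands of RefSeq promoters of GRCm38.p6, from 250 bases before to 50 bases after each start site. They were in 1304 of 32851 promoters, 3.97%. Among the 10 regulators, Trib3, Chac1 and Atf3 held them. A gene could have more than 1 promoter and was counted if any of them matched, whereas the share is of promoters. The windows below run 5′ to 3′ on the strand of the gene, with the match in capitals. For the regulators the match is on the opposite strand and reads as its reverse complement. The 3 windows lie at chr2:152344028-152344057 (minus strand), chr2:119351038-119351067 (plus strand) and chr1:191183425-191183454 (minus strand), in the same order. Another 3 windows come from the ATF4 target genes Slc7a11 and Asns, described further on, at chr3:50443661-50443690 and chr3:50443642-50443671 (Slc7a11, minus strand) and chr6:7693214-7693243 (Asns, minus strand).
Trib3: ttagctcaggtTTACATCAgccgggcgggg
Chac1: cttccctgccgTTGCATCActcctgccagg
Atf3: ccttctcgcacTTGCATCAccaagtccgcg
Slc7a11, first site: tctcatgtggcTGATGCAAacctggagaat
Slc7a11, second site: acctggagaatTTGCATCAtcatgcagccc
Asns: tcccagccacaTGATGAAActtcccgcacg
The first base of the match was base 15 in Trib3, counting the RefSeq start site as base 1. It was at -193 in Chac1, -110 in Atf3, -66 and -47 in Slc7a11 and -23 in Asns. By its GENCODE position Trib3 starts at 152344032 on the minus strand, which places its match before the start. The related element CRE, TGACGTCA, was in 588 promoters, 1.79%, and in that of 1 regulator, Ppp1r15a, at -12 (chr7:45526262-45526291, minus strand).
Ppp1r15a, CRE: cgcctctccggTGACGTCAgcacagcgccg
A match is a description of letters and not a measured binding site, and other regulators may hold the element outside this window. Among the ATF4 target genes described further on, holders of the letters included both well expressed genes and genes without reads.

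Atf4, the central transcription factor, had the highest level of the 10 and was higher in every KO library than in any WT library, though by little. Atf4 (ENSMUSG00000042406, chromosome 15 from 80255184 to 80257541, plus strand of GRCm38) was at 140, 163 and 172.1 CPM in WT 1 to 3 and at 172.3, 198 and 205 CPM in KO 1 to 3. The highest WT library and the lowest KO library nearly touched. The means were 158 ± 16.3 and 192 ± 17.2 CPM (SD, n = 3), a log2 fold change of 0.28 ± 0.09 (SE) with a 95% interval of 0.06 to 0.49. In edgeR the adjusted p was 0.123, so the difference did not pass. The same-numbered libraries differed by nearly equal amounts, 0.30, 0.28 and 0.25 on the log2 scale for numbers 1, 2 and 3. The labels do not say that equal numbers mark pairs. By deviations from the group means, WT 2 was more like KO 3 (correlation 0.34) than KO 2 (0.20). The pairs of numbers 2 and 3, and the block result that uses them, are therefore uncertain. With library number as a block the fold change was 0.28 ± 0.05 and Atf4 passed, with an adjusted p of 0.00553 in edgeR. It also passed without KO 1 (adjusted p 0.0311), whereas leaving out KO 3 gave the largest adjusted p of all alternatives, 0.35.

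**Figure D1:**
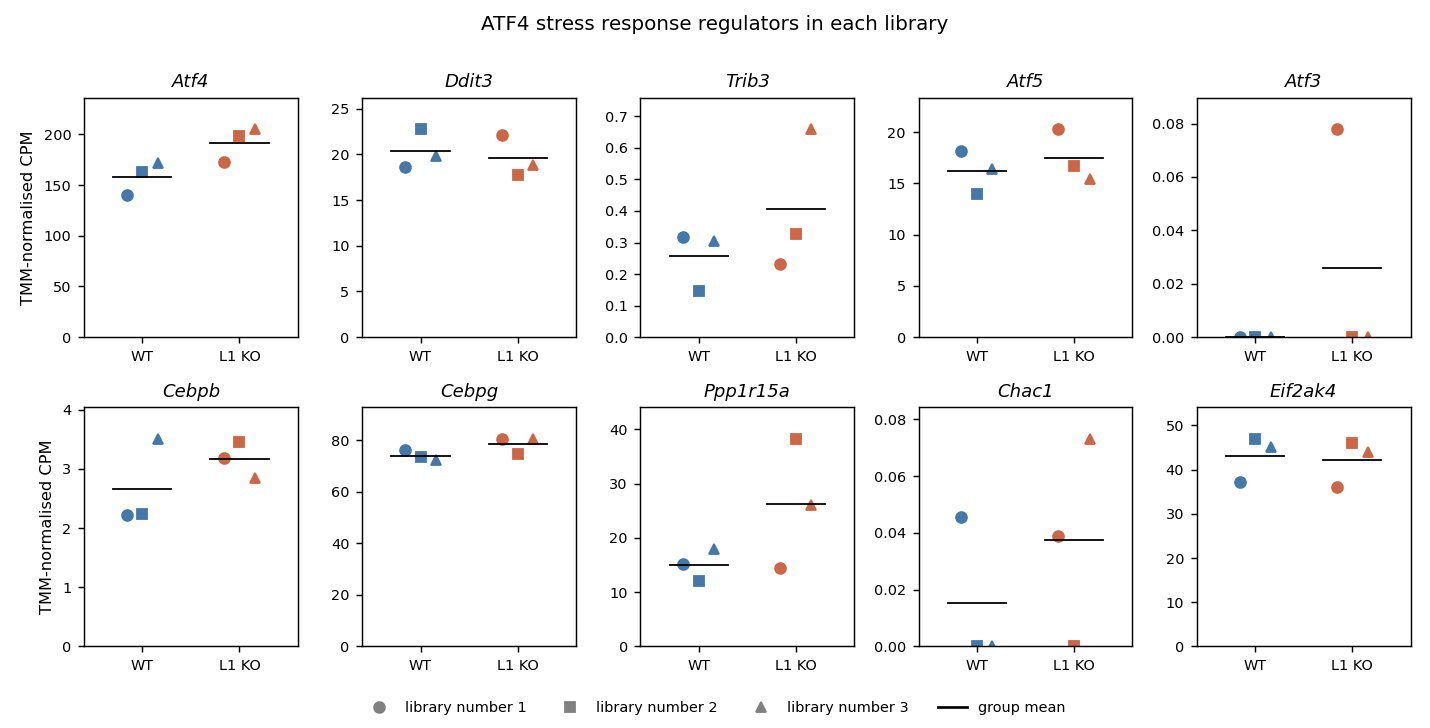
Level of each of the 10 regulators in each library, as TMM-normalised CPM on a linear axis from 0, with WT in blue, L1 KO in orange, marker shapes for the library number and a line at the group mean. Atf4 separates the groups by a narrow margin, Ppp1r15a is high in KO 2 and KO 3 only, and Trib3, Atf3 and Chac1 lie below 0.7 CPM throughout.

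None of the 7 tested regulators passed in edgeR (0 higher and 0 lower, against 2.08% and 2.48% of all tested genes), and 1, Atf4, had an unadjusted p under 0.05, as did 23.5% of all tested genes. DESeq2 also called 0 of the 7, against 8.90% of all genes, and limma-voom 0, against 3.89%. With the block 1 of the 7 was higher, against 9.51% of all genes. The 7 had a median log2 fold change of 0.12, and that of all tested genes was -0.0066. In 1 of the 7, Atf4, the KO libraries all lay above the WT libraries, as in 13.8% of all tested genes.

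Ddit3 encodes CHOP, the factor that ATF4 induces under lasting stress and that promotes cell death. It lies on chromosome 10 from 127290774 to 127296288. Ddit3 was at 18.6, 22.7 and 19.8 CPM in WT 1 to 3 and at 22.1, 17.7 and 18.9 CPM in KO 1 to 3. The groups overlapped fully, with KO 2 the lowest library and WT 2 the highest. The log2 fold change was -0.06 ± 0.12 with a 95% interval of -0.32 to 0.21 and an adjusted p of 0.802 in edgeR. Its sign turned when WT 2 (0.03) or KO 2 (0.02) was left out. Exons of Ddit3 share 68 bases with those of Mars on the opposite strand, and the strand setting of the counting is not given in the sources used here.

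Trib3, Atf3 and Chac1, all known as strongly induced targets of ATF4, were at or near 0. Trib3 encodes a pseudokinase that binds ATF4 and CHOP and damps them. The WT libraries 1 to 3 gave 7, 3 and 6 reads of Trib3 and the KO libraries 6, 9 and 9 reads, which are 0.146 to 0.318 CPM in WT and 0.233 to 0.658 CPM in KO. The pooled reads were 16 in WT and 24 in KO, a KO over WT ratio of 1.39 after scaling for depth, with an exact 95% counting interval of 0.710 to 2.81. The ranges overlapped, and KO 3, the shallowest library, was the highest.

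Chac1 encodes an enzyme that breaks down glutathione. The WT libraries 1 to 3 gave 1, 0 and 0 reads of Chac1, and the KO libraries 1, 0 and 1. Atf3, a stress-induced repressor of the same family as Atf4, had 0 reads in all 3 WT libraries and in KO 2 and KO 3, and 2 reads in KO 1. A library with 0 reads allows a level of up to 0.109 to 0.219 CPM, taking 3 reads as the limit. These limits cover counting error only. Neither gene was detectably different at this depth.

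Cebpb and Cebpg encode C/EBP factors that pair with ATF4 on the composite element. Cebpg, on chromosome 7 from 35046422 to 35056573, was at 76.2, 73.5 and 72.2 CPM in WT 1 to 3 and at 80.6, 74.7 and 80.3 CPM in KO 1 to 3. WT 1 was above KO 2, so the groups overlapped. Its log2 fold change was 0.09 ± 0.06 with a 95% interval of -0.06 to 0.23, the narrowest interval of the 7, and an adjusted p of 0.439 in edgeR. Cebpb, on chromosome 2, was low, at 2.23, 2.24 and 3.51 CPM in WT 1 to 3 and at 3.19, 3.45 and 2.85 CPM in KO 1 to 3. WT 3 was the highest of all 6 libraries. The log2 fold change was 0.27 ± 0.22 with a 95% interval of -0.22 to 0.77, and leaving out 1 library moved it between 0.16 (without WT 1) and 0.52 (without WT 3). Cebpb exons share 312 of 1504 bases with Tmem189 on the opposite strand.

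Atf5 is a relative of Atf4 whose mRNA is also translated more under stress and which acts in the mitochondrial stress response. Atf5, on chromosome 7, was at 18.2, 13.9 and 16.4 CPM in WT 1 to 3 and at 20.3, 16.7 and 15.4 CPM in KO 1 to 3. Both ranges overlapped, and the number 1 library was the highest of its group in each. The log2 fold change was 0.12 ± 0.14 with a 95% interval of -0.19 to 0.42, and leaving out 1 library moved it between 0.0013 (without KO 1) and 0.21 (without WT 1).

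Eif2ak4, the gene of the amino acid sensing kinase GCN2 on chromosome 2, lay at nearly equal levels in same-numbered libraries. It was at 37.2, 47.0 and 45.1 CPM in WT 1 to 3 and at 36.1, 46.1 and 44.0 CPM in KO 1 to 3. The number 1 library was the lowest in each group. The log2 fold change was -0.04 ± 0.12 with a 95% interval of -0.30 to 0.23, and its sign turned without WT 2, WT 3 or KO 1.

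Ppp1r15a encodes GADD34, the phosphatase subunit that takes the phosphate off eIF2 again and closes the feedback loop. It showed the largest fitted difference of the 7 and the widest spread. Ppp1r15a, on chromosome 7 from 45522916 to 45526268, was at 15.2, 11.997 and 17.96 CPM in WT 1 to 3 and at 14.5, 38.3 and 26.0 CPM in KO 1 to 3. KO 2 and KO 3 lay above every WT library, and KO 1 lay within the WT range. The log2 fold change was 0.81 ± 0.38 with a 95% interval of -0.14 to 1.75 and an adjusted p of 0.270 in edgeR. The value rested on single libraries: it was 1.12 without KO 1, where it passed with an adjusted p of 0.0243, and 0.42 without KO 2.

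**Figure D2:**
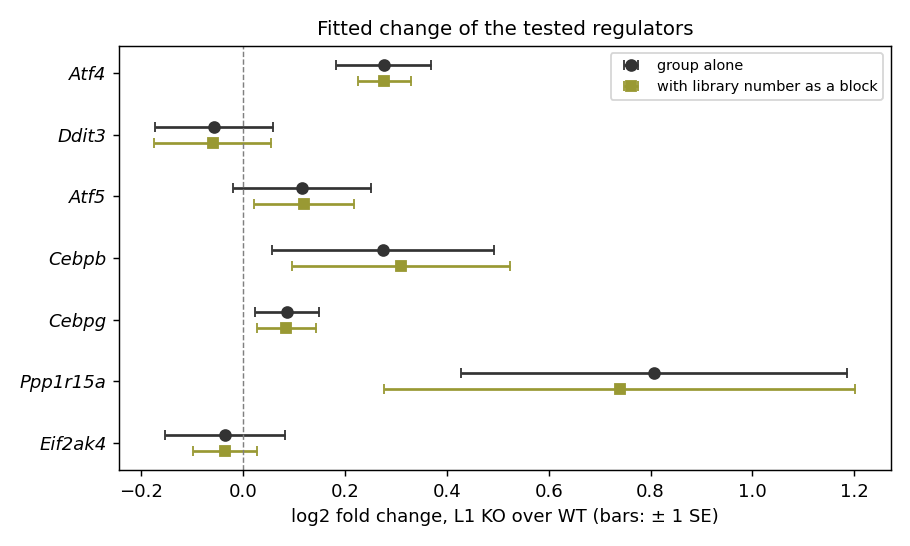
Fitted log2 fold change of L1 KO over WT for the 7 tested regulators, with bars of 1 SE, from the model with group alone (circles) and with library number as a block (squares). The Atf4 estimate is 0.28 in both models, with an SE of 0.09 and 0.05, and Ppp1r15a has the widest bars.

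Some immediate early genes, which cells also induce while tissue is taken apart, had the same order of KO libraries as Ppp1r15a, and others did not. Fos, Fosb, Jun and Dusp1 were chosen after their values were seen, as genes with that order. Fos was at 0.227, 4.93 and 8.04 CPM in WT 1 to 3 and at 0.233, 41.0 and 22.4 CPM in KO 1 to 3. Jun was at 38.0, 41.1 and 75.2 CPM in WT and at 44.0, 191 and 117 CPM in KO. For both, as for Ppp1r15a, KO 2 was the highest library and KO 3 the second. Fosb reached 14.9 CPM and Dusp1 26.9 CPM in KO 2, against 0.350 and 7.82 CPM in KO 1. Of the 18 genes on the list of dissociation and immediate early genes, KO 2 was the highest of the 6 libraries in 9, against 15.6% of all tested genes, and KO 1 was the lowest KO library in 12, against 40.2%. Other genes of the list, also chosen after their values were seen, had another order: Egr1 and Nr4a1 were highest in WT 3, at 20.5 and 24.3 CPM, and Ier3 was highest in WT 2.

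Of these 18 genes 1 rose and 0 fell, against 2.08% and 2.48% of all tested genes in edgeR. The gene that rose was Klf6, a zinc finger factor, from 26.8 ± 2.80 to 38.3 ± 3.30 CPM (log2 fold change 0.52 ± 0.10, adjusted p 0.0260 in edgeR). Its call was lost without WT 2, WT 3, KO 2 or KO 3. The block called 4 higher, against 9.51% of all tested genes, and 1 lower, against 1378 of 13729 genes. The other 3 with the smallest p did not pass: Btg2, an antiproliferative gene that p53 also induces, had a log2 fold change of -0.48 ± 0.13, Zfp36, an mRNA decay factor, 0.53 ± 0.18, and Ier2 0.29 ± 0.12. The list's median was 0.40. The heat shock gene Hspa1a, chosen after its values were seen, was at 1.41, 2.19 and 9.82 CPM in WT and at 7.63, 17.4 and 19.5 CPM in KO, so that WT 3 lay above KO 1. The part of handling in the Ppp1r15a values was not tested.

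**Figure D3:**
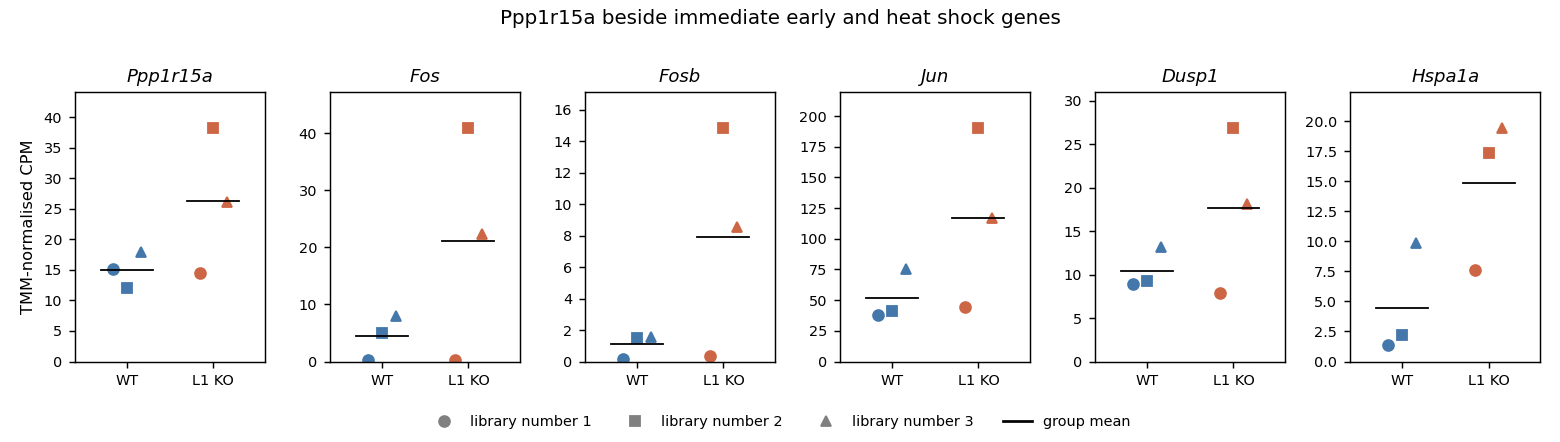
Level of Ppp1r15a beside Fos, Fosb, Jun, Dusp1 and Hspa1a in each library, as TMM-normalised CPM on linear axes from 0, with WT in blue, L1 KO in orange, marker shapes for the library number and a line at the group mean. In the first 5 panels KO 2 is the highest library and KO 1 lies near the WT libraries, and in the Hspa1a panel KO 3 is the highest.

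Compared per kilobase of merged exons, the levels of the 10 regulators spanned several orders of magnitude. Atf4 was first in WT with 67.1 ± 6.92 CPM per kilobase. Cebpg (13.2 ± 0.356) and Ddit3 (11.9 ± 1.23) followed, and their WT libraries overlapped. Atf5 came next with 8.12 ± 1.07, then Eif2ak4 (5.78 ± 0.695) and Ppp1r15a (5.12 ± 1.02), whose WT libraries also overlapped, and then Cebpb with 1.77 ± 0.489. Trib3 stood at 0.121 ± 0.0451. Chac1 had 0 reads in 3 of the 6 libraries, and Atf3 in 5. In KO the mean of Ppp1r15a was 8.95 ± 4.05 CPM per kilobase, beside 8.76 ± 1.26 for Atf5. The order depended on the length used for neighbours only: with the longest transcript Ddit3 and Cebpg changed places, and with coding length Cebpg and Atf4 did.

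**Figure D4:**
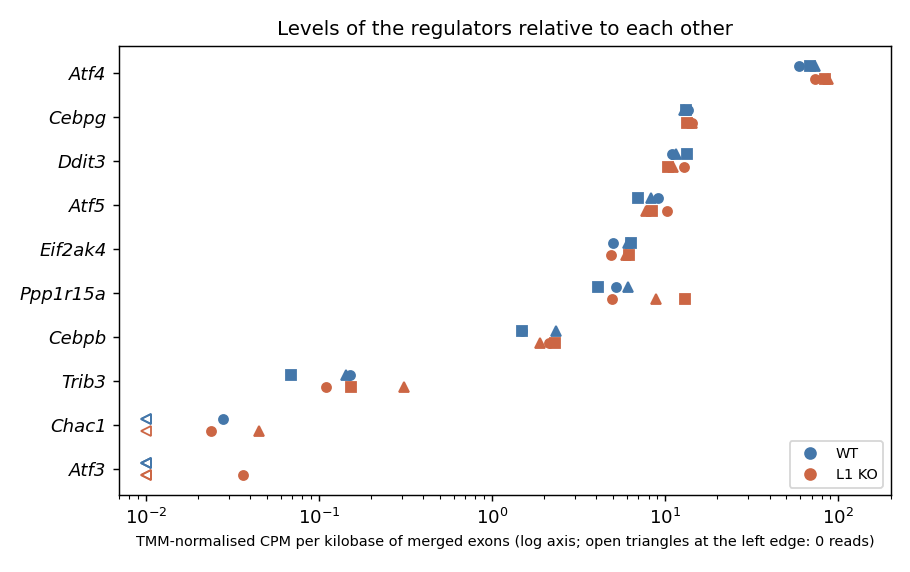
Level of the 10 regulators in each library as TMM-normalised CPM per kilobase of merged exons on a log axis, with WT in blue and L1 KO in orange, in the order of the WT mean. Open triangles at the left edge stand for libraries with 0 reads. Atf4 lies apart at the top, and Trib3, Chac1 and Atf3 lie below 1 CPM per kilobase.

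The genes whose centred log2 levels over the 6 libraries lay nearest to Atf4, by root mean square difference, were Anp32b (0.0245), Ran (0.0246), the GTPase of nuclear transport, and Nufip1 (0.0261). Anp32b was at 508, 568 and 612 CPM in WT 1 to 3 and at 623, 731 and 740 CPM in KO 1 to 3, with the same order of libraries as Atf4. Among the genes nearest to Ddit3 were 5430405H02Rik (0.0333) and Elovl1 (0.0404), a fatty acid elongase gene. With 6 libraries in 2 groups these values describe likeness in these libraries only.

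The machinery that ATF4 signalling starts from showed small differences. Of 20 tested genes of eIF2 phosphorylation and exchange, 1 rose and 0 fell, against 2.08% and 2.48% of all tested genes in edgeR. The median log2 fold change of the list was 0.13. The block called 5 higher, against 9.51% of all tested genes. Eif2s3x, which encodes the gamma subunit of eIF2, rose from 356, 364 and 370.04 CPM in WT 1 to 3 to 421, 458 and 448 CPM in KO 1 to 3. Its groups did not overlap, and its log2 fold change was 0.28 ± 0.06 with an adjusted p of 0.0413 in edgeR. That call was lost when any library but KO 1 was left out. Its near-copy on the Y chromosome, Eif2s3y, had 0 reads in all 6 libraries. Eif2b3, Eif2b1 and Eif2b5, subunits of the factor eIF2B that recharges eIF2 with GTP, had log2 fold changes of 0.32 ± 0.09, 0.20 ± 0.06 and 0.14 ± 0.06 and did not pass. In 8 of the 20 genes KO libraries lay above all WT libraries, against the 13.8% of all genes given above. The 8 include Eif2s3x and the 3 eIF2B genes, which were picked by smallest p and so tend to separate. The other eIF2 kinases, chosen after their values were seen, had log2 fold changes of 0.13 ± 0.06 (Eif2ak1, the heme-regulated kinase), 0.10 ± 0.16 (Eif2ak2, the kinase PKR) and 0.03 ± 0.08 (Eif2ak3, the kinase PERK), and none passed. The constitutive phosphatase subunit gene Ppp1r15b, chosen in the same way, had -0.03 ± 0.06.

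Target genes of amino acid supply differed in both directions. Of 18 tested, 2 rose and 1 fell, and the median log2 fold change was 0.18. DESeq2 called 6 of the 18, against 8.90% of all tested genes, and limma-voom 2, against 3.89%. In 9 the unadjusted p in edgeR was under 0.05, against 23.5%. All KO libraries lay above all WT libraries in 6 genes, against 13.8%, and below them in 2, against 14.7%. The block gave 7 higher and 2 lower genes. Of all tested genes 2.08% rose and 2.48% fell in edgeR, and with the block 9.51% rose and 1378 of 13729 genes fell, which holds for the lists that follow too. Slc7a5 and Slc3a2 together encode the LAT1 amino acid transporter. Slc7a5 was at 130, 123 and 145 CPM in WT 1 to 3 and at 176, 173 and 168 CPM in KO 1 to 3 (log2 fold change 0.38 ± 0.07, adjusted p 0.0235 in edgeR). Slc3a2 rose from 78.3 ± 5.65 to 104 ± 8.63 CPM. Both calls were lost without WT 1, WT 2, KO 2 or KO 3. Mthfd2, an enzyme of mitochondrial one-carbon metabolism, had 0.34 ± 0.08 (adjusted p 0.0520), and passed with the block (0.00532).

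Slc7a11, which encodes the exchange subunit of the cystine transporter and holds 2 matches to the CARE letters, fell from a low level. It was at 1.501, 1.61 and 1.12 CPM in WT 1 to 3 and at 0.584, 0.254 and 0.658 CPM in KO 1 to 3, a log2 fold change of -1.59 ± 0.36 with an adjusted p of 0.0432 in edgeR. The call held in 8 of 15 alternatives and was lost with limma-voom, with the earlier edgeR default and without any 1 library other than KO 1. Asns, the gene of asparagine synthetase and a classic ATF4 target with 1 match, is named here after its values were seen. It was at 1.18, 3.76 and 2.39 CPM in WT 1 to 3 and at 1.17, 1.13 and 0.732 CPM in KO 1 to 3. WT 1 and KO 1 were nearly equal. The log2 fold change was -1.20 ± 0.42, with an adjusted p of 0.132, which was 0.0308 with the block.

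All 13 tested target genes of tRNA charging had positive log2 fold changes, with a median of 0.15, and none passed in edgeR (4 had an unadjusted p under 0.05, DESeq2 called 1 and limma-voom 0). With the block 2 rose. In 7 of the 13 all KO libraries lay above all WT libraries, and in 0 below, against 13.8% and 14.7% of all tested genes. The 4 with the smallest p were Wars, Sars, Aars and Iars, tRNA synthetase genes with log2 fold changes of 0.21 ± 0.06, 0.20 ± 0.07, 0.17 ± 0.06 and 0.17 ± 0.07. Among all tested genes 48.8% had a positive log2 fold change. The CARE letters were found in promoters of 5 of the 9 genes of this list with a sequence, 4 of 15 of amino acid supply and 5 of 13 of growth control and feedback. Matches on 1 chromosome were left out for the listed genes, so these counts are lower bounds. None of the regulators lies on that chromosome. The lists were made of genes known as ATF4 targets, so these shares only describe them. The holders found in this list, Aars, Gars, Iars, Tars and Yars, were well expressed, with WT means of 90.2 CPM (Yars) to 184 CPM (Iars).

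Of 11 tested targets of growth control and feedback, 2 rose, 0 fell, and the median was 0.10, against the 2.08% and 2.48% of all tested genes. DESeq2 called 3, limma-voom 2, and 4 had an unadjusted p under 0.05 in edgeR, against 8.90%, 3.89% and 23.5%. Sesn2, which restrains the growth kinase complex mTORC1, was at 5.64, 5.51 and 5.65 CPM in WT 1 to 3 and at 13.8, 9.73 and 10.97 CPM in KO 1 to 3 (log2 fold change 1.04 ± 0.15, adjusted p 0.00968 in edgeR). The call was lost without WT 2 alone. Tnfrsf10b encodes a death receptor that CHOP induces. It was at 3.23, 4.39 and 4.07 CPM in WT 1 to 3 and at 8.09, 7.77 and 10.1 CPM in KO 1 to 3, and its log2 fold change was 1.14 ± 0.17 (adjusted p 0.00968). It passed in all 16 alternatives. Both genes are also known targets of p53. Bcl2l11, which encodes the death protein Bim, had 0.39 ± 0.12, and Map1lc3b, an autophagy gene, -0.23 ± 0.10, and neither passed. Nupr1 and Fgf21, targets that hold the CARE letters and were chosen after their values were seen, had 0 reads in all 6 libraries. Herpud1, a gene of protein breakdown at the endoplasmic reticulum that also holds the letters and was chosen in the same way, was at 39.5 ± 6.41 CPM in WT and 43.7 ± 2.51 CPM in KO and did not pass.

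**Figure D5:**
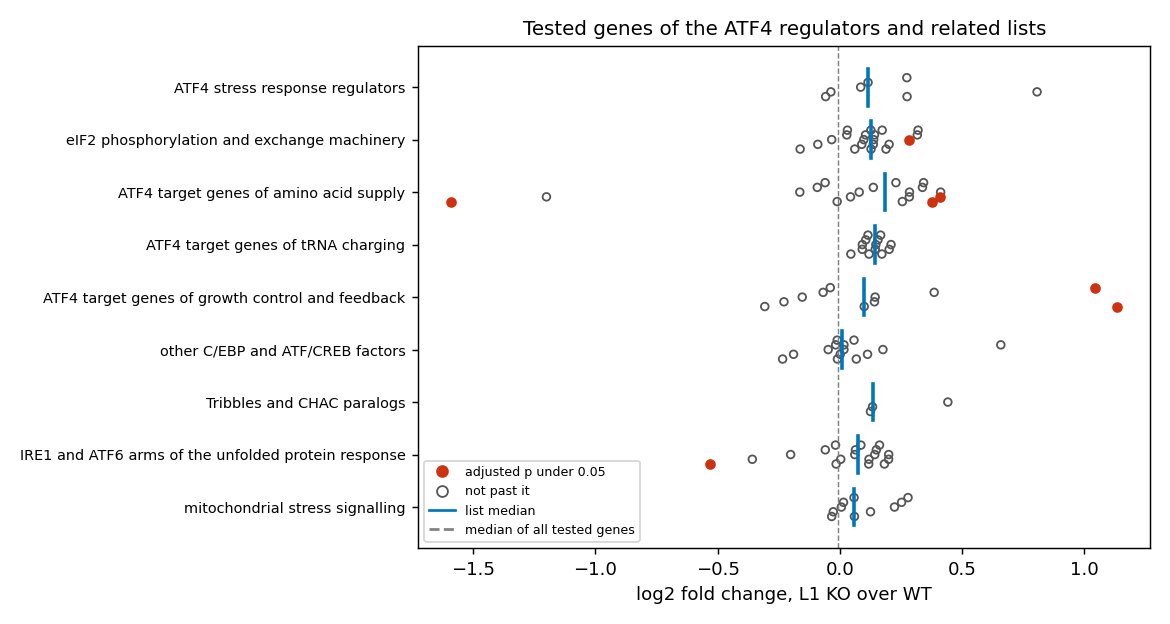
Log2 fold change of L1 KO over WT for each tested gene of the 10 regulators and of 8 related lists, filled where the adjusted p was under 0.05, with the list median in blue and the median of all tested genes dashed. No regulator is filled, and the filled genes are Eif2s3x, Slc7a5, Slc3a2, Slc7a11, Sesn2, Tnfrsf10b and Xbp1.

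Relatives of the regulators did not pass the test. None of 14 tested C/EBP and ATF/CREB factors passed in edgeR (3 had an unadjusted p under 0.05, and DESeq2, limma-voom and the block called 0), with a median of 0.0095. Atf7 had a log2 fold change of -0.19 ± 0.07, Nfil3 0.66 ± 0.26 from about 1 CPM, Nfe2l2, the oxidative stress factor, 0.18 ± 0.07, and Creb3l2 -0.23 ± 0.12. Cebpa, Cebpd and Cebpe, other C/EBP genes chosen after their values were seen, had at most 7 reads in any library. The paralogs Trib1, Trib2 and Chac2 did not pass, with log2 fold changes of 0.13 ± 0.17, 0.44 ± 0.19 and 0.13 ± 0.19 (1 had an unadjusted p under 0.05, and DESeq2 and limma-voom called 0). Trib2 passed with the block, with an adjusted p of 0.00681. It was at 21.1, 13.2 and 15.4 CPM in WT 1 to 3 and at 26.9, 19.3 and 21.4 CPM in KO 1 to 3, so the related genes were present where Trib3 and Chac1 nearly were not.

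Of 18 tested genes of the IRE1 and ATF6 arms of the unfolded protein response, 0 rose and 1 fell, with a median of 0.08 and with 2 higher and 2 lower in the block. Xbp1, the factor made active by IRE1, fell from 192, 246 and 237 CPM in WT 1 to 3 to 156, 144 and 168 CPM in KO 1 to 3 (log2 fold change -0.53 ± 0.10, adjusted p 0.0260 in edgeR), a call lost without WT 2, WT 3, KO 2 or KO 3. Ern1, which encodes IRE1 itself, had -0.36 ± 0.10 and passed with the block (0.00243). Calr and Dnajb11, chaperone genes of the endoplasmic reticulum, had 0.20 ± 0.08 and 0.15 ± 0.07. None of 10 genes of mitochondrial stress signalling passed in edgeR (3 had an unadjusted p under 0.05, DESeq2 and limma-voom called 0), and with the block 3 rose, with a median of 0.06. Hspe1, Hspd1 and Hspa9, chaperone genes of the mitochondrial matrix, had 0.25 ± 0.08, 0.28 ± 0.10 and 0.22 ± 0.09, and Lonp1, a protease gene, 0.13 ± 0.06.

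Markers of other cells were mostly low. Of 7 B lineage markers, Ms4a1 and Pax5 had 0 reads in every library, and the summed level, nearly all Cd79b, was 30.8 to 33.6 CPM in WT and 24.2 to 27.7 CPM in KO. Of 7 NK and innate lymphoid markers, Ncr1 and Il1rl1 had 0 reads, with sums of 35.7 to 39.8 and 30.7 to 41.5 CPM. The 10 myeloid markers summed to 30.1 to 36.3 and 31.4 to 35.8 CPM, the 8 dendritic ones to 57.4 to 95.6 and 82.7 to 86.3 CPM, and the 8 erythroid and platelet ones to 6.61 to 13.1 and 2.41 to 6.22 CPM. The 10 epithelial and stromal markers summed to 205 to 237 and 214 to 239 CPM, and the 10 mature and double positive ones to 536 to 632 and 626 to 749 CPM. In each list other than the B lineage and erythroid ones the ranges of these sums overlapped between the groups, while single markers differed. Most of the dendritic sum was Bst2. Of the 5 dendritic markers tested, Cd74 and H2-Eb1 fell, 4 had all KO libraries below all WT libraries, and the median log2 fold change was -1.26, at levels of at most 7.51 CPM for those 4. Among all tested genes, 14.7% had all KO libraries below all WT libraries, and in edgeR 2.08% rose and 2.48% fell. Epcam fell and Pdgfrb rose among 4 tested stromal markers, and Klf2 and Cd6 rose among 9 tested mature and double positive ones. These genes were named after their values were seen. In bulk RNA, a change in the share of a cell type and a change in its RNA per cell cannot be told apart, and the part of these cells in the values above was not tested.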

How the data were processed

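The deposited values are raw counts of reads for 34573 gene symbols in 6 libraries, beside 5 summary rows of the counter that stayed out of all totals (reads in no feature made up 50.4% to 51.9% of each library). Per the submitters' processing notes, TopHat2, HTSeq and GRCm38 were used; for versions, annotation and strand setting, nothing is given in the sources used here. Columns named Ctrl were matched to WT titles by number, and 0 sample columns were left unmatched.

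Counts were filtered with filterByExpr (minimum count 10, minimum total 15), scaled by TMM and compared between KO and WT with the two-sided quasi-likelihood F test of edgeR 4.0.16 in R 4.3.3 (robust, bias-adjusted deviances). P-values were adjusted by Benjamini-Hochberg over all 13729 tested genes. DESeq2 1.42.0 and limma-voom (limma 3.58.1) were alternatives. The SE is implied by the F statistic, and intervals of fold changes are 95%. The procedure was tested on simulated data with the same spread for every gene, no effect of library number and changes only in genes with many reads. That test therefore does not cover genes with few reads or the differences between library numbers seen here.

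For numbers 1, 2 and 3 the deviations of the WT and the KO library from their means had correlations of 0.60, 0.20 and 0.39. As each exceeded 0.1, numbers were treated as pairs in the block, although the labels name no litter or day behind them. WT 2 correlated better with KO 3 (0.34) than with KO 2, and WT 3 with KO 2 also exceeded 0.1, at 0.27. This rule therefore cannot settle which libraries of numbers 2 and 3 belong together. The labels do not state that each library is a mouse of its own, and the spread that p-values measure may therefore be technical. No 2 libraries of the same group were alike within sampling noise.

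The 10 regulators and the other lists were chosen with earlier results of these data known. Named genes are all regulators, the 4 members of each pathway list with the smallest p, Rpl22l1 and the 3 genes nearest to Atf4 and to Ddit3 with at least 5 CPM (1 of those nearest to Ddit3 is not reported here); any other gene is marked in the text as picked with its values in view. Positions and lengths are from GENCODE M21 and promoters from RefSeq, both GRCm38; all 10 regulators had a promoter. Of 58 promoters searched, 53 had bases after the start site in a GENCODE transcript of the gene on the same strand.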

Additional observations from a re-analysis of the deposited data

How the results depend on the processing

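Among the 7 tested regulators, 102 of 111 fold changes under alternatives kept their direction and their side of the threshold. Ddit3 ranged from -0.1546 to 0.0277 and Eif2ak4 from -0.1317 to 0.0729 when 1 library was left out, and both changed sign. Atf4 (0.28) passed with the replicate block (0.28) and without both libraries numbered 1 (0.27), and ranged from 0.20 to 0.35 when 1 library was left out. Ppp1r15a ranged from 0.42 to 1.12. The number of regulators called higher, 0, became 1 with the block and 1 without both number 1 libraries, and was 0 to 2 when 1 library was left out.

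Over the whole table, 286 higher and 340 lower genes became 1306 and 1378 with the block, 612 and 610 with DESeq2 and 1391 and 1407 without both number 1 libraries. Leaving out 1 library gave 54 to 1049 higher and 48 to 994 lower. The 8 related lists together held 106 tested genes. Of all 13729 tested genes, 2.08% were higher and 2.48% lower in edgeR. With the block 9.51% were higher and 1378 genes lower. In the 8 lists, 5 higher genes became 22 with the block, 10 with DESeq2 and 18 without both number 1 libraries. Leaving out 1 library gave 1 to 13 there. The 2 lower genes became 5 with the block, 4 without both number 1 libraries, 0 to 3 without 1 library, and 1 each with a mean of at least 5 CPM (which removes Slc7a11), with limma-voom and with the earlier edgeR default, an alternative chosen after seeing the data. Apart from the first of these, the cause was not tested. Ranks by length kept 8 of 10 regulators in place with either other length. Trib3, Atf3 and Chac1 did not pass the filter on low counts, and without that filter 0 regulators were called.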

Other observations

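Jdp2, which encodes a repressor of the AP-1 family and was chosen after its values were seen, separated the libraries by number and not by genotype. It was at 22.6 CPM in WT 1 and 20.7 CPM in KO 1, against 7.17 and 6.87 CPM in WT 2 and WT 3 and 6.93 and 4.46 CPM in KO 2 and KO 3. Fos ran the other way, with 0.227 and 0.233 CPM in the number 1 libraries and 4.93 to 41.0 CPM in the others. Its fold change within numbers 2 and 3 was positive in both, and near 0 in number 1, at 0.04 on the log2 scale. Ddit4 and Vldlr were also chosen after their values were seen. Ddit4, a stress-induced inhibitor of mTORC1, overlapped between the groups, with 22.5, 41.3 and 25.3 CPM in WT 1 to 3 and 31.9, 17.1 and 23.0 CPM in KO 1 to 3, and Vldlr, a receptor gene that holds the CARE letters, had 1, 1 and 4 reads in WT 1 to 3 and 0 reads in all 3 KO libraries.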
